A study of Mus musculus with 12 samples.

Results

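Interferon-stimulated genes are the genes that cells switch on when an interferon is sensed, and 33 of them were followed here. The members were taken from a list of symbols by a rule that used no measured value. The list itself was chosen with earlier results of these data known. All 33 of the 33 symbols matched 1 gene each among the 35523 genes of the series, and 32 of 33 had enough reads to be tested. The libraries came from stromal vascular fraction (SVF) cells of epididymal fat of 12-week-old male ob/ob mice, which lack functional leptin. The cells of every group were put through adipogenic differentiation for 4 days. They first received IBMX, dexamethasone and insulin, and then a maintenance medium with insulin. Cycloheximide was given before lysis. The groups compared were polysome Rosi, polysome Veh, input Rosi and input Veh. Rosi cultures received 1 µM rosiglitazone, an agonist of the nuclear receptor PPARγ, and Veh cultures received DMSO. Polysome libraries hold mRNA from the pooled heavy fractions of a sucrose gradient, and input libraries hold total RNA taken before fractionation. The labels do not say which input and polysome libraries come from the same culture. No lean mouse and no culture given an interferon was analysed here, so that every comparison is within ob/ob SVF cells to which no interferon was added.

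Type I interferons bind the receptor IFNAR1/IFNAR2, whose kinases JAK1 and TYK2 phosphorylate STAT2. STAT2 and IRF9 are parts of ISGF3, which binds the interferon-stimulated response element (ISRE) in front of its targets, whereas interferon γ acts on the gamma-activated site (GAS). The products restrict viruses by binding, degrading or sequestering viral RNA, by halting translation, or by marking the membranes on which pathogens grow. Fat tissue macrophages and adipocyte progenitors both carry interferon receptors, and many of these genes are also transcribed at a low level without added interferon.

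Each group had 3 deposited libraries, but the tables of input Veh replicates 2 and 3 were identical in 117135 of 117135 transcripts and entered once, as replicate 2. Input Veh therefore had n = 2, and the other groups n = 3. The 11 libraries held 17446517 to 24016101 estimated reads. The level of a gene across libraries is given in CPM, its count scaled to a common library size after TMM normalisation. Macrophage markers summed to 13853 to 23957 CPM over the 11 libraries, progenitor markers to 2697 to 6871 CPM, smooth muscle markers to 7524 to 11688 CPM and lymphocyte markers to 1.92 to 4.90 CPM. Adipocyte markers summed to 1265 to 1534 CPM in polysome Rosi, 125 to 170 CPM in polysome Veh, 668 to 767 CPM in input Rosi and 80.7 to 86.0 CPM in input Veh. In bulk RNA, fewer cells of a type and less RNA per cell cannot be told apart. The labels call the libraries biological replicates without saying how mice were pooled, and p-values here measure only the spread between libraries.

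The promoter windows in the RefSeq table (GRCm38.p6, 250 bases before to 50 bases after the gene start) covered 25 of the 33 members. The ISRE core (GAAA, any 2 bases and GAAA again), sought on both strands, was found in 14 of 25 members (56%) and in 3.99% of the 27025 genes of the table. The GAS letters TTCNNNGAA were found in 6 of 25 members (24%) and in 9.55% of genes. These are matches of letters in 1 window a start site, and no test was made of them. The windows below are shown for members on which the results turn and which hold the motif upstream of the start. Each is 30 bases read 5′ to 3′ in the direction of the gene, and the capitals mark 1 ISRE core or its reverse complement. Cores in the promoter windows numbered 3 for Isg15, 2 each for Ifit1, Ifit3, Gbp3 and Bst2, and 1 for Oas3. For Isg15, Gbp3 and Bst2, further cores that overlap the marked one are not marked.
Ifit1 (chr19:34640794-34640823, plus strand): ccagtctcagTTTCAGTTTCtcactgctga
Ifit3 (chr19:34583397-34583426, plus strand): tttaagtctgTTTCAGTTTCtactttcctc
Isg15 (chr4:156200871-156200900, minus strand): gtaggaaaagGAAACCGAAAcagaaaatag
Oas3 (chr5:120777715-120777744, minus strand): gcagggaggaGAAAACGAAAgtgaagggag
Gbp3 (chr3:142559989-142560018, plus strand): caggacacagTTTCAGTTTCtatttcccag
Bst2 (chr8:71537577-71537606, minus strand): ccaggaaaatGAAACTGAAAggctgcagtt
The ISRE letters were not found in the windows of Samd9l (gene at chr6:3372257-3399572, minus strand) and Ifit2 (gene at chr19:34550694-34576419, plus strand), members that were called below. Dhx58, Mx1, Mx2, Oas2, Parp14, Rtp4, Usp18 and Zbp1 had no window in the RefSeq table and were not searched. Of these, Dhx58 and Oas2 were also called below.

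Levels between genes were compared in TPM, the share of a gene among all transcripts after correction for transcript length. Bst2, which encodes the membrane tether tetherin, was the most abundant member at 292 ± 30.5 TPM in polysome Rosi, 313 ± 45.5 TPM in polysome Veh and 230 ± 7.88 TPM in input Rosi (SD, n = 3 each), and 223 ± 9.86 TPM in input Veh (SD, n = 2). It is also a marker of plasmacytoid dendritic cells. Siglech, another marker of those cells, was at 0 in 10 of 11 libraries. The 9 dendritic cell markers, Bst2 among them, summed to 101 to 151 CPM over the 11 libraries, and Bst2 alone had 85.6 to 140.5 CPM. Which cells the Bst2 reads came from was not tested. Irgm1, a GTPase that acts on the vacuoles of intracellular pathogens, followed with 45.6, 42.6, 46.8 and 40.5 TPM in polysome Rosi, polysome Veh, input Rosi and input Veh. Isg15, a ubiquitin-like modifier that interferon induces strongly, had 51.7, 39.7, 34.0 and 28.4 TPM in the same groups. Ifi35, a cytosolic protein that binds other interferon-induced factors, had 29.5, 30.2, 40.2 and 42.5 TPM.
Below these, Xaf1, Oas1a, Irf9, Rtp4, Irf1, Ddx58 and Samd9l lay between 5.93 and 27.0 TPM as group means, and 15 members from Zbp1 down to Ifit1 lay between 1.12 and 9.93 TPM. Oas3, Oasl1, Rsad2, Oas2, Ifi44, Mx2 and Mx1 had means under 1.78 TPM in every group.

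**Figure D1:**
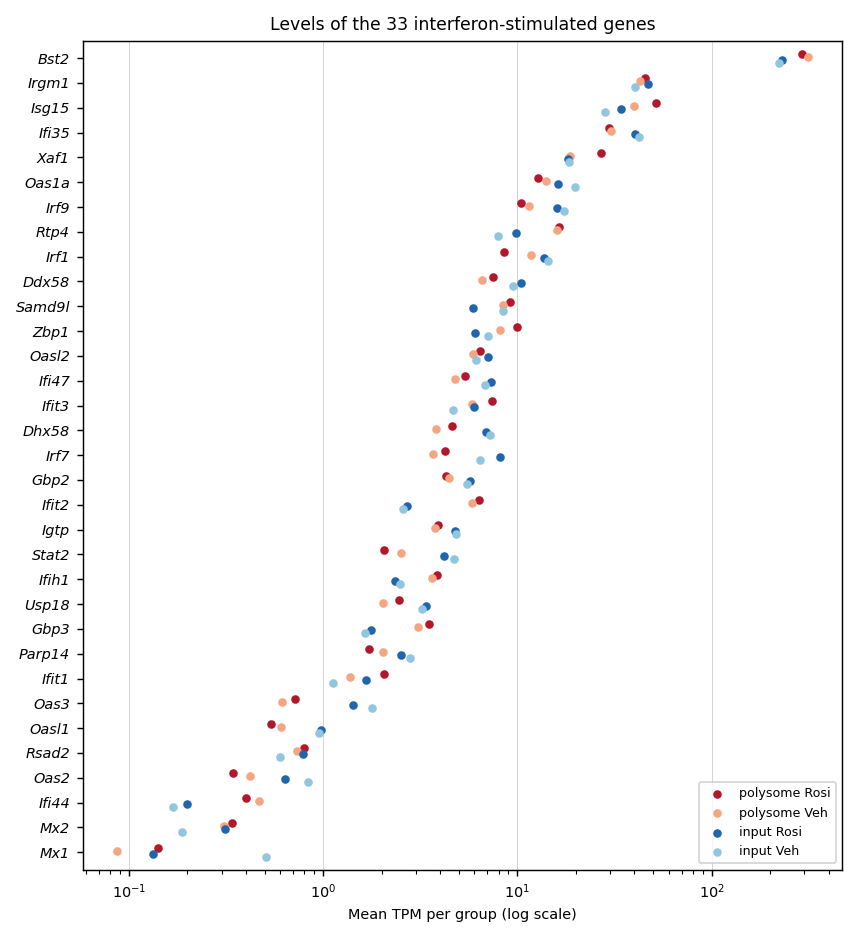
Mean TPM of each of the 33 members in polysome Rosi, polysome Veh, input Rosi and input Veh, on a log axis and in order of the mean over groups. Bst2 stands at 223 to 313 TPM in all 4 groups, while Mx1 and Mx2 lie under 1 TPM.

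Mx1 and Mx2, dynamin-like GTPases against influenza and other viruses, were near the limit of these libraries. Mx1 had 60 reads in all 11 libraries and was the member not tested, and Mx2, which the annotation calls a polymorphic pseudogene, had 110 reads. Laboratory mouse strains of the C57BL/6 kind carry defective copies of both. Rsad2, the antiviral enzyme viperin, had 494 reads in all.
The ligands were scarce too. Of 16 interferon genes looked at, 14 had no read in any library, 1 was tested, and their summed level was 0.217 to 2.08 CPM. The receptor chains were well measured, with Ifnar1 at 115 to 154 CPM and Ifnar2 at 62.2 to 79.4 CPM over the 11 libraries.

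In input, Rosi was compared with Veh by the quasi-likelihood F test of edgeR, with Benjamini-Hochberg adjustment over all genes. Calls needed an adjusted p under 0.05 together with a log2 fold change beyond 0.2 in either direction. Of 32 members, 0 were called higher and 1 was called lower, where 1.13% and 0.206% of the 13603 genes tested were called higher and lower. Without adjustment, 0 of 32 members were higher and 2 lower at p under 0.05, beside 1252 higher and 1060 lower of the 13603 genes. DESeq2 also called 1 member lower and 0 higher. Above 0 lay 14 members and below 0 lay 18, and the median log2 fold change of the members was -0.01, beside 0.01 over all genes tested.
The called member was Samd9l, which encodes a cytosolic protein that restricts poxviruses and restrains cell growth. Samd9l had 28.5, 22.9 and 21.9 CPM in the 3 input Rosi libraries, against 35.7 and 39.2 CPM in the 2 input Veh libraries. Every input Rosi library lay below both input Veh libraries, and the log2 fold change was -0.55 ± 0.12 (SE, adjusted p = 0.0426). The call was lost when input Veh replicate 1 (-0.61, adjusted p = 0.0751), input Veh replicate 2 (-0.49, adjusted p = 0.350), input Rosi replicate 2 (-0.52, adjusted p = 0.146) or input Rosi replicate 3 (-0.49, adjusted p = 0.124) was left out. It was also lost where each library's trend on GC content was taken out (-0.32, adjusted p = 0.110). In polysome the same gene had 38.6, 37.5 and 38.5 CPM in Rosi, against 37.6, 33.5 and 35.2 CPM in Veh, and these values overlapped.

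Markers of macrophages moved with this result. In input, all 18 of 18 macrophage markers had a log2 fold change below 0, with a median of -0.36, and Lyz2 (-0.45 ± 0.08, adjusted p = 0.0112) and Msr1 (-0.45 ± 0.10, adjusted p = 0.0439) were called lower. Their summed level was 13853 to 16320 CPM in input Rosi, against 19070 to 22023 CPM in input Veh. In polysome 18 of 18 were also below 0, with a median of -0.17 and 0 called. The part of these markers in the Samd9l difference was not tested.
The groups of libraries did not overlap for 8 members that were lower in input Rosi, namely Samd9l, Oas3, Oas1a, Ifih1, Parp14, Dhx58, Irf9 and Ifi35, and for Mx2 alone in the other direction. Over all genes tested, 23.9% were lower and 12.8% higher without overlap, so the 8 of 32 members lower stood near the background, while 1 of 32 was higher. Overlap was judged on CPM scaled over all 4 groups, whereas the fold changes came from the fit of input alone. These scales differ slightly. Usp18 had means of 3.93 CPM in input Rosi and 3.96 CPM in input Veh, with a log2 fold change of 0.07. Narrow gaps between groups, and the split of 23.9% and 12.8%, may shift with that scaling. Oas1a, a 2-5A synthetase that feeds RNase L, had 20.4, 19.0 and 22.5 CPM in input Rosi, against 23.1 and 32.4 CPM in input Veh (-0.36 ± 0.14, adjusted p = 0.225). The gap between the groups was small, and the value did not pass adjustment. Oas3 stood at -0.38 ± 0.20 (adjusted p = 0.352). On the other side the smallest p-values were those of Ddx58, the RNA sensor RIG-I (0.19 ± 0.15), Mx2 (0.70 ± 0.58), and Rsad2 and Ifit1 (0.35 ± 0.32 and 0.48 ± 0.44), with adjusted p-values from 0.521 to 0.589.

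In polysome, 0 members were called higher and 0 lower by edgeR, where 0.633% and 0.0223% of the 13436 genes tested were called. DESeq2 called 0 in either direction as well. Without adjustment, 1 member was higher and 1 lower at p under 0.05, beside 344 higher and 292 lower of the 13436 genes. Above 0 lay 21 members and below 0 lay 11, with a median of 0.07, beside -0.01 over all genes. The groups did not overlap for 1 member in each direction, beside 4.58% of all genes higher and 4.38% lower.
The member above was Ifit1, which encodes a protein that seizes viral RNA without a host cap. Ifit1 had 4.75, 3.60 and 3.62 CPM in polysome Rosi, against 2.39, 2.80 and 2.88 CPM in polysome Veh (0.56 ± 0.22, adjusted p = 0.933). The member below was Irf1, the transcription factor that interferon γ induces at once, with 13.4, 12.2 and 11.1 CPM in polysome Rosi and 14.4, 18.5 and 14.9 CPM in polysome Veh (-0.39 ± 0.14, adjusted p = 0.801). Neither difference passed adjustment over all genes. The next smallest p-values above 0 were those of Xaf1, which promotes cell death by binding the inhibitor XIAP (0.33 ± 0.17), and Isg15 (0.34 ± 0.18). Below 0 they were those of Stat2 (-0.37 ± 0.18) and Parp14, an ADP-ribosyltransferase (-0.27 ± 0.16). For all 4 the adjusted p was 1.000 and the groups overlapped.

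By role, the 5 genes of the IFIT family and the ISG15 system (Ifit1, Ifit2, Ifit3, Isg15 and Usp18, the protease that takes ISG15 off its targets) had fold changes above 0 in both fractions, with medians of 0.32 in polysome and 0.19 in input. None of the 5 was called in either. Over all genes tested, 6407 of 13436 lay above 0 in polysome and 7055 of 13603 in input. For Isg15, Ifit3 and Usp18 a single Rosi library in each fraction lay far above the others, as given below. The transcription factors Stat2, Irf9, Irf7 and Irf1 had medians of -0.27 in polysome and -0.10 in input, with Irf7 the one above 0 in both. The OAS family had medians of 0.01 in polysome and -0.30 in input. These values stand side by side, and the difference between fractions is given with the interaction test further on.

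**Figure D2:**
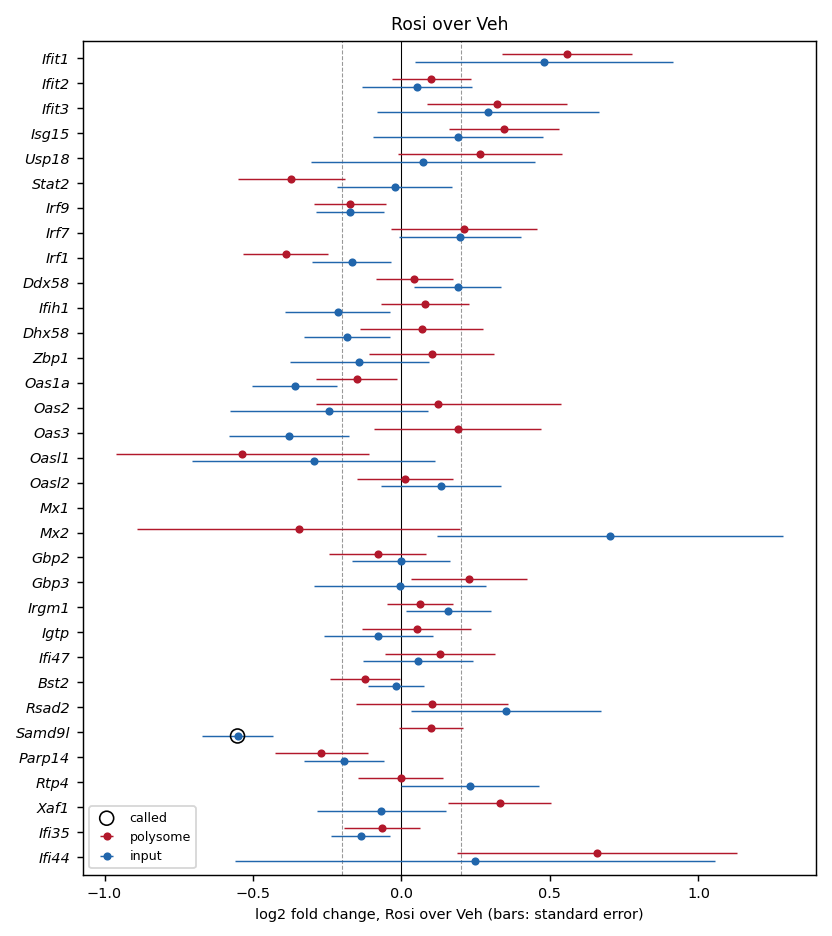
Log2 fold change of Rosi over Veh for each member in polysome and in input, with bars of 1 standard error, dashed lines at the minimum fold change of 0.2 and a ring on the called member. Samd9l in input (-0.55) carries the ring, and Mx1 has no value because it was not tested.

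The spread between libraries of 1 group was wide for many members and ran the same way for most of them. In polysome Rosi replicate 1, 28 of 32 members were above the mean of the other 2 polysome Rosi libraries, by a median of 0.35 on the log2 scale, where 54.1% of all genes were above with a median of 0.02. In input Rosi replicate 3, 27 of 32 members were above the other 2 input Rosi libraries, by a median of 0.31, where 45.5% of all genes were above with a median of -0.02. In input Rosi replicate 2, by contrast, 5 of 32 were above. In the other 8 libraries 8 to 18 of 32 members were above.
Isg15 had 21.9, 13.0 and 13.5 CPM in polysome Rosi, 13.3, 12.1 and 12.5 CPM in polysome Veh, 8.08, 7.17 and 15.99 CPM in input Rosi and 8.69 and 10.6 CPM in input Veh. Ifit3, of the IFIT family, had 12.3, 6.94 and 6.74 CPM in polysome Rosi, 6.51, 5.84 and 8.37 CPM in polysome Veh, 3.60, 5.24 and 11.6 CPM in input Rosi and 6.42 and 5.38 CPM in input Veh. Usp18 had 3.85, 2.04 and 2.68 CPM in polysome Rosi, 2.71, 2.34 and 2.04 CPM in polysome Veh, 2.12, 3.13 and 6.55 CPM in input Rosi and 3.61 and 4.32 CPM in input Veh. For each of these genes 1 Rosi library was far above the others of its group, and it was replicate 3 in input and replicate 1 in polysome.
Among 75 other interferon-stimulated genes outside the members, 48 were above in polysome Rosi replicate 1 (median 0.14) and 50 in input Rosi replicate 3 (median 0.09). Macrophage markers summed to 16931 CPM in polysome Rosi replicate 1, beside 17340 and 21213 CPM in the other 2, and to 13981 CPM in input Rosi replicate 3, beside 16320 and 13853 CPM. With input Rosi replicate 3 left out, the log2 fold change of Isg15 in input was -0.28 (0.19 with it), and that of Ifit3 was -0.35 (0.29 with it). Leaving out polysome Rosi replicate 1 gave 0.08 for Isg15 and -0.01 for Ifit3 in polysome, beside 0.34 and 0.32 with it. So for both genes the difference between Rosi and Veh turned on that library, and neither was called with or without it.

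**Figure D3:**
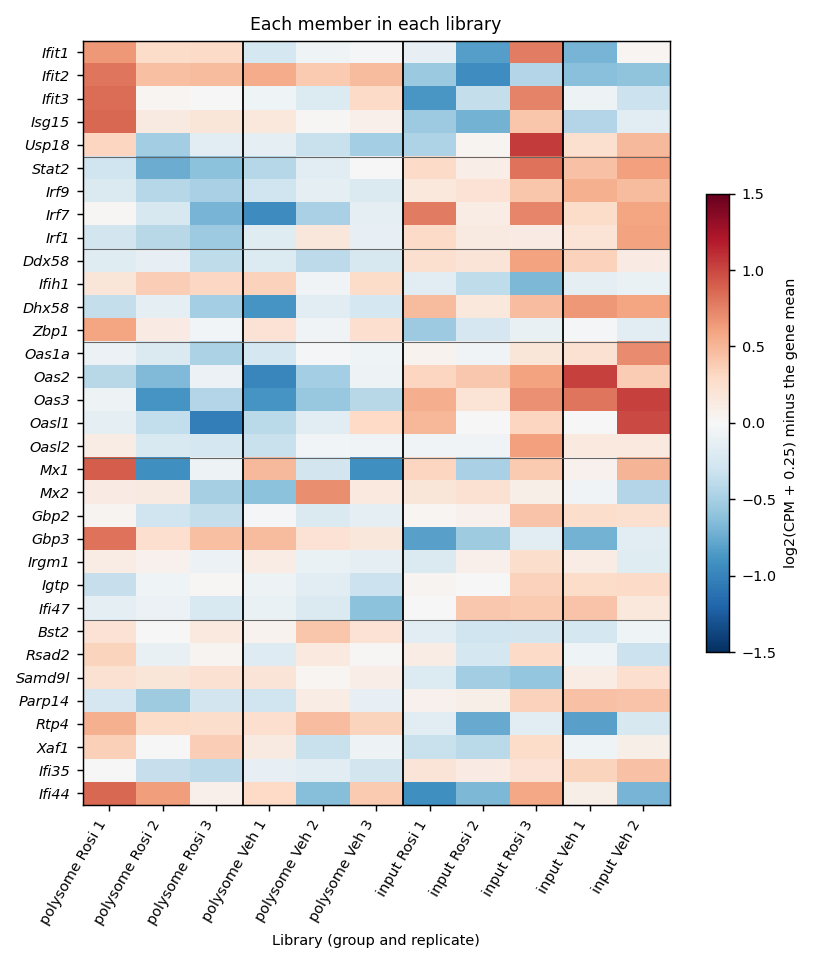
Each member in each of the 11 counted libraries, as log2(CPM + 0.25) minus the mean of that gene over libraries, with members grouped by role and black lines between groups. The columns polysome Rosi 1 and input Rosi 3 are the reddest of their groups, with 28 and 27 of 32 tested members above the other libraries of the group.

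Polysome over input was compared within each treatment, to see how far the mRNA of each member was found in heavy polysomes relative to its total level. Here a call needed an absolute log2 fold change over 1. In Rosi cultures 2 members were called higher and 0 lower, where 6.49% and 4.86% of the 14042 genes tested were called. In Veh cultures 1 was called higher and 3 lower, where 2.99% and 6.68% of genes were called. The members' medians were -0.31 in Rosi and -0.34 in Veh, beside 0.00 and 0.02 over all genes tested. At an adjusted p under 0.05 with no minimum fold, 8 of 32 members were higher and 12 lower in Rosi, where 29.1% of all genes were higher and 26% lower. In Veh 4 of 32 were higher and 13 lower at this threshold, where 24.7% and 24.6% of all genes were.
The groups did not overlap for 7 members higher and 13 lower in Rosi, beside 33.7% and 31.7% of all genes. In Veh they did not overlap for 6 higher and 16 lower, beside 32.5% and 31.5%. The 2 comparisons share no library, and 29 of 32 members lay on the same side of 0 in both (18 below and 11 above), as did 87.0% of all genes tested.

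Ifit2, an RNA-binding member of the IFIT family, was the one member called in both treatments. It had 21.01, 16.4 and 16.7 CPM in polysome Rosi, against 8.03, 6.12 and 8.74 CPM in input Rosi (1.24 ± 0.14, adjusted p = 5.05e-06). In Veh it had 17.7, 15.7 and 16.7 CPM in polysome, against 7.65 and 7.78 CPM in input (1.11 ± 0.17, adjusted p = 7.85e-05). Every polysome library lay above every input library.
Gbp3, a guanylate-binding GTPase of host defence, had 7.66, 5.12 and 5.90 CPM in polysome Rosi, against 2.32, 2.86 and 3.77 CPM in input Rosi (1.05 ± 0.22, adjusted p = 0.000992). In Veh it had 6.04, 5.00 and 4.81 CPM in polysome, against 2.51 and 3.78 CPM in input, which did not reach the fold threshold (0.74 ± 0.26, adjusted p = 0.0298). The groups were apart in both treatments. Without polysome Rosi replicate 1 the Rosi value fell under the threshold (0.88), and so it did without input Rosi replicate 1 (0.91).
Rtp4, which binds viral RNA and also acts as a chaperone of receptors, was higher at 0.71 in Rosi and 0.86 in Veh (adjusted p = 0.00381 and 0.00350), and Bst2 at 0.37 and 0.39 (adjusted p = 0.00924 and 0.0144). Both passed the adjusted p but not the minimum fold. Isg15 stood at 0.63 in Rosi (adjusted p = 0.0466) and 0.39 in Veh (adjusted p = 0.293). The remaining genes of the IFIT family and the ISG15 system did not pass the adjusted p in either treatment, with Ifit1 at 0.34 and 0.19, Ifit3 at 0.34 and 0.23 and Usp18 at -0.47 and -0.75.

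The OAS family, in which the OASL proteins carry ubiquitin-like domains, lay below 0 in 5 of 5 members in both treatments. Its medians were -0.95 in Rosi and -0.79 in Veh, which are the values of Oasl1 (adjusted p = 0.0696 and 0.165). Oas3 had 3.38, 1.82 and 2.58 CPM in polysome Rosi, against 5.32, 4.14 and 5.88 CPM in input Rosi (-0.98 ± 0.23, adjusted p = 0.00228), and 1.82, 2.34 and 2.62 CPM in polysome Veh, against 6.42 and 7.52 CPM in input Veh (-1.62 ± 0.26, adjusted p = 0.000118). Oas2 had 0.813, 0.651 and 1.09 CPM in polysome Rosi, against 1.53, 1.63 and 1.91 CPM in input Rosi (-0.99 ± 0.36, adjusted p = 0.0268), and 0.468, 0.748 and 1.10 CPM in polysome Veh, against 2.63 and 1.60 CPM in input Veh (-1.44 ± 0.40, adjusted p = 0.00726). For both genes polysome lay below input in every library of each treatment, and the Veh value was called while the Rosi value stood just inside the threshold. Oas2 rested on 289 reads in all, and its call in Veh was lost without input Veh replicate 1 (-1.05, adjusted p = 0.115).
Dhx58, which encodes LGP2, the partner of the RNA sensors RIG-I and MDA5, had 6.55, 7.63 and 5.85 CPM in polysome Rosi, against 11.9, 9.46 and 11.7 CPM in input Rosi (-0.72 ± 0.18, adjusted p = 0.00290). In Veh it had 4.48, 7.48 and 7.01 CPM in polysome, against 13.4 and 12.8 CPM in input (-1.05 ± 0.20, adjusted p = 0.000462). The groups were apart in both treatments, and the Veh call was lost without polysome Veh replicate 1 (-0.86).

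The 4 transcription factors were lower in polysome at an adjusted p under 0.05 in both treatments, with none over the minimum fold, and by this threshold 26% of all genes were lower in Rosi and 24.6% in Veh. Stat2, the ISGF3 subunit that brings the activating domain, was nearest to it at -0.9987 ± 0.19 in Rosi (adjusted p = 0.000384) and -0.73 ± 0.21 in Veh (adjusted p = 0.00872). Stat2 had 7.79, 5.64 and 6.19 CPM in polysome Rosi, against 11.8, 10.3 and 17.1 CPM in input Rosi, and these groups did not overlap. It crossed the minimum fold and was called lower in Rosi with DESeq2 (-1.01), RLE factors (-1.01) and upper-quartile factors (-1.05), and without polysome Rosi replicate 1 (-1.15), input Rosi replicate 1 (-1.07) or input Rosi replicate 2 (-1.14). Irf7, which amplifies the interferon response, stood at -0.87 and -0.97, Irf9, the DNA-binding subunit of ISGF3, at -0.65 and -0.73, and Irf1 at -0.60 and -0.46.
The RNA and DNA sensors parted. Ddx58, which encodes RIG-I, was lower at -0.59 in Rosi and -0.53 in Veh (adjusted p = 0.00115 and 0.00728), beside Dhx58 above. Ifih1, which encodes MDA5, was higher at 0.70 in Rosi (adjusted p = 0.00124) and stood at 0.33 in Veh (adjusted p = 0.134). Zbp1, a sensor of Z-form nucleic acid that starts necroptosis, was higher at 0.57 in Rosi (adjusted p = 0.0268) and stood at 0.24 in Veh (adjusted p = 0.407).
Among the GTPases, Gbp2 stood at -0.39 in both treatments, Igtp at -0.27 in Rosi and -0.48 in Veh, and Ifi47 at -0.45 and -0.61, whereas Irgm1 was at -0.02 and -0.01. Irgm1, the most abundant of them, had 72.4, 70.5 and 63.3 CPM in polysome Rosi, 72.4, 62.5 and 61.2 CPM in polysome Veh, 57.7, 70.6 and 81.0 CPM in input Rosi and 72.6 and 59.0 CPM in input Veh, which overlapped throughout. Of the other effectors, Parp14 was lower at -0.54 in both treatments (adjusted p = 0.00363 in Rosi and 0.00781 in Veh) and Ifi35 at -0.42 and -0.57 (adjusted p = 0.00479 and 0.00135).
Ifi44, which restrains the spread of several viruses, had 1.11, 0.911 and 0.545 CPM in polysome Rosi, against 0.148, 0.220 and 0.870 CPM in input Rosi, which overlapped (1.02 ± 0.61, adjusted p = 0.171). Without input Rosi replicate 3 it was called higher (2.18, adjusted p = 0.0163). Rsad2 stood at 0.04 in Rosi and 0.21 in Veh, and Xaf1 at 0.38 and -0.10, and neither passed the adjusted p.

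**Figure D4:**
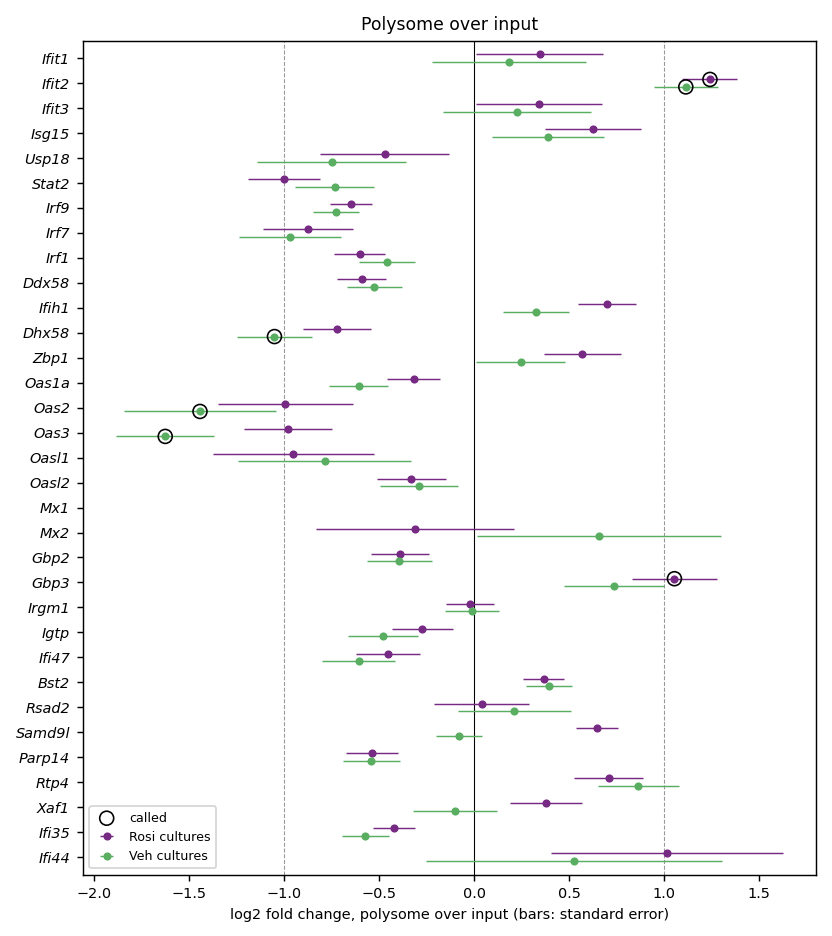
Log2 fold change of polysome over input for each member in Rosi and in Veh cultures, with bars of 1 standard error, dashed lines at the minimum fold change of 1 and rings on called members. Ifit2 carries a ring in both treatments, Gbp3 in Rosi, and Oas2, Oas3 and Dhx58 in Veh.

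GC content of the transcript moved with polysome over input, across members and across all genes. For the most abundant protein-coding transcript of each gene, GC content and the log2 fold change had Pearson's r = -0.63 and Spearman's rho = -0.61 over 32 members in Rosi, and r = -0.56 and rho = -0.57 in Veh. Over the 13514 and 13507 genes with a GC value, r was -0.63 and rho -0.67 in Rosi, and r was -0.57 and rho -0.65 in Veh. These are descriptions across genes of the same libraries, which are not independent replicates. The median GC content was 49.5% over the 33 members and 50.4% over 13515 genes tested.
The 5 members of lowest GC content were Samd9l (38.8%), Ifi44 (39.4%), Ifit2 (42.0%), Ifit1 (43.3%) and Rsad2 (43.9%), and all 5 were above 0 in Rosi, as were all but Samd9l (-0.08) in Veh. The 5 of highest GC content were Irf7 (56.5%), Oasl1 (56.3%), Bst2 (55.3%), Oas3 (54.6%) and Ifi35 (54.1%), and all but Bst2 were below 0 in both treatments. Members of low GC content thus tended to lie above 0 and those of high GC content below it, with Bst2 as the clearest exception.
When each library's trend on GC content was taken out, an alternative added after seeing the data, 0 members were called higher in either treatment, and 0 lower in Rosi and 2 lower in Veh. The 2 were Oas2 (-1.40, adjusted p = 0.00990) and Oas3 (-1.22, adjusted p = 0.000813). Ifit2 then stood at 0.55 in Rosi and 0.60 in Veh (adjusted p = 0.00777 and 0.0143), Gbp3 at 0.71 in Rosi and Dhx58 at -0.70 in Veh, all under the minimum fold. The members' medians were -0.35 in Rosi and -0.33 in Veh, beside -0.31 and -0.34 without the adjustment.

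**Figure D5:**
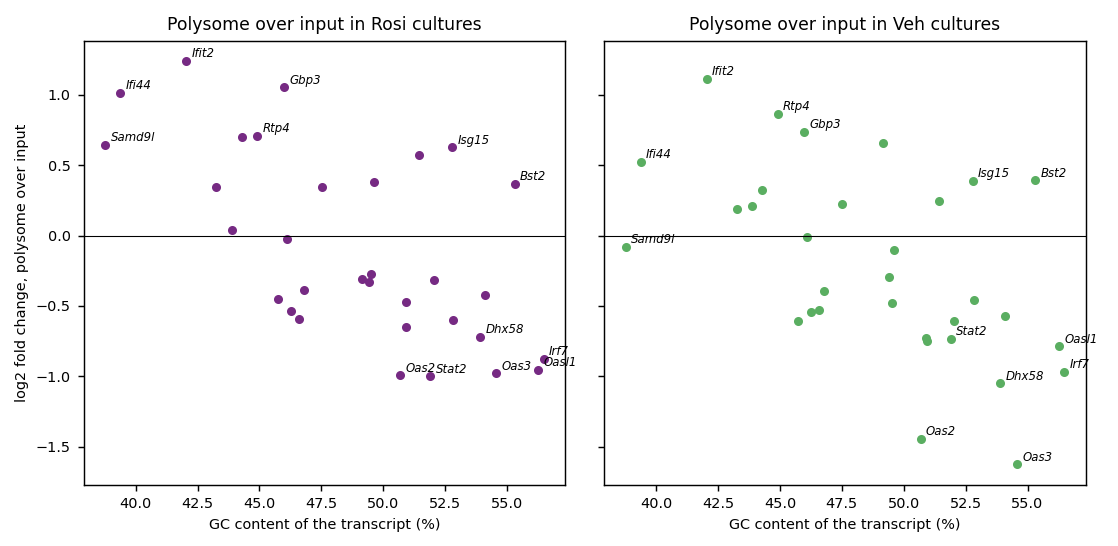
Log2 fold change of polysome over input against the GC content of the most abundant protein-coding transcript, 1 point a member, in Rosi and in Veh cultures. The points fall with GC content (r = -0.63 in Rosi and -0.56 in Veh), Bst2 lies above 0 at 55.3% GC, and Oas2 and Oas3 are the lowest points in Veh.

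The difference of polysome over input between Rosi and Veh was tested as the interaction of treatment and fraction, here called translation efficiency. EdgeR called 0 of 32 members higher and 0 lower, where 0% and 0% of the 14042 genes tested were called. DESeq2 called 0 members too. Without adjustment, 1 member was higher and 0 lower at p under 0.05, beside 626 and 335 of all genes. The median of the members was 0.14, beside 0.06 over all genes tested.
The member was Samd9l (0.73 ± 0.16, adjusted p = 0.719). As given above, its level was lower in input Rosi than in input Veh, while the polysome levels overlapped. Polysome over input for Samd9l was 0.65 ± 0.11 in Rosi (adjusted p = 0.000146) and -0.08 ± 0.12 in Veh (adjusted p = 0.611). With the GC trend taken out these became -0.24 and -0.61. Oas3 (0.65 ± 0.35) and Xaf1 (0.48 ± 0.29) had the next smallest p-values above 0, and Mx2 (-0.97 ± 0.83), Stat2 (-0.27 ± 0.28) and Irf1 (-0.14 ± 0.20) the smallest below 0, with adjusted p-values from 0.733 to 0.884. The largest standard errors were those of Ifi44 (1.00) and Mx2 (0.83), both of low level.

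The reads of a few members fell on several transcripts. For Ddx58, protein-coding transcripts held 39.4 to 44.8% of the reads in polysome Rosi, 37.4 to 57.3% in polysome Veh, 72.1 to 80.0% in input Rosi and 64.5 to 69.2% in input Veh. The rest lay mostly on a processed transcript of 3533 bases. No polysome library reached the share of any input library. For Oasl2 the shares were 26.1 to 47.9% in polysome Rosi, 40.7 to 46.4% in polysome Veh, 50.5 to 58.7% in input Rosi and 49.8 to 56.4% in input Veh, with a transcript marked for nonsense-mediated decay holding much of the rest. These shares are estimates of the quantifier over overlapping transcripts, and no test was made of them.
Counted by reads on protein-coding transcripts only, polysome over input of Ddx58 was -1.44 in Rosi and -1.08 in Veh, and that of Oasl2 was -1.01 and -0.56. Ddx58 was then past the minimum fold in both treatments (adjusted p = 9.32e-06 and 0.000364) and Oasl2 in Rosi (adjusted p = 0.00439), whereas neither was called with all transcripts.

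The reads of some members could also belong to neighbours. Exons of Irf7 overlap those of Phrf1 on the opposite strand, exons of Irf9 overlap Rnf31, exons of Igtp overlap Irgm2 and exons of Ifi47 overlap Olfr56 on the same strand. Phrf1 held 8694 reads, Rnf31 3858, Irgm2 1760 and Olfr56 174 over the 11 libraries. Without a stated strand, reads of Irf7 and Phrf1 cannot be told apart where they overlap, and the values of Irf7 are uncertain in that respect. The read sums of Ifit3, Oas1a, Oas3, Stat2, Ddx58, Irgm1, Xaf1 and Ifi47 were not whole numbers, since the quantifier divided reads among similar transcripts, and their values are uncertain to that extent.

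The other genes of the pathway were looked at by lists. For Rosi over Veh, none of the 5 receptor chains tested, 5 JAK-STAT transducers, 4 other interferon regulatory factors, 11 inhibitors or 16 nucleic acid sensors was called in polysome or in input. Among 71 other interferon-stimulated genes tested, 1 was called higher in polysome and 0 in input, with medians of -0.06 and -0.10. Over all genes tested, 0.633% were called higher in polysome and 1.13% in input. The called gene was Iigp1, an immunity-related GTPase that acts on parasite vacuoles. Iigp1 had 3.00, 2.04 and 2.28 CPM in polysome Rosi, against 0.729, 0.607 and 0.889 CPM in polysome Veh (1.70 ± 0.32, adjusted p = 0.0242). In input it had 1.13, 1.10 and 1.86 CPM in Rosi, against 0.245 and 0.426 CPM in Veh (2.06 ± 0.53, adjusted p = 0.0832). Every Rosi library lay above every Veh library in both fractions. The polysome call was lost without polysome Veh replicate 2 (adjusted p = 0.179), or without polysome Rosi replicate 1 (adjusted p = 0.165), 2 (adjusted p = 0.0537) or 3 (adjusted p = 0.0691). The related members Irgm1, Igtp and Ifi47 stood at 0.06, 0.05 and 0.13 in polysome and at 0.16, -0.08 and 0.05 in input, with none called.
For polysome over input, the kinase Jak2 was called higher in Rosi and Veh (1.10 and 1.01), as was the phosphatase Ptpn2 (1.05 and 1.08), which takes phosphate off JAK1. Called lower in both were Stat3 (-1.17 and -1.18), the RNA editor Adar (-1.15 and -1.09), the ISG15-activating enzyme Uba7 (-1.42 and -1.63) the helicases Helz2 (-1.86 and -1.88) and Mov10 (-1.49 and -1.72), the DNA sensor Tlr9 (-1.89 and -1.96), the phosphatase Ptpn6 (-1.02 and -1.21), the secreted glycoprotein gene Lgals3bp (-1.39 and -1.62), Pml of nuclear bodies (-1.02 and -1.25), Znfx1 (-1.07 and -1.36) and the peptide transporter subunit Tap2 (-1.03 and -1.33). In Rosi alone the calls were the RNA sensor Tlr3 (1.09), the DNA sensor Aim2 (1.04), Ifitm6 (1.17) and the caspase gene Casp4 (1.01), all higher. In Veh alone they were Irf3 (-1.04), Irf2bp1 (-1.29) and Tap1 (-1.16), lower, and Gbp8, higher, for which no fold is given because input Veh was near 0 (0.468, 0.234 and 0.471 CPM in polysome Veh, against 0.0612 and 0 CPM in input Veh). The difference between treatments was not called for any of these genes. Of the 75 other interferon-stimulated genes tested in this comparison, 2 were called higher and 6 lower in Rosi, and 1 higher and 6 lower in Veh, with medians of 0.00 and -0.01. Antigen presentation genes, many of which interferon γ induces, had 1 of 20 lower in Rosi and 2 of 20 in Veh, with 0 higher and medians of -0.44 and -0.46. Over all 14042 genes tested, 6.49% were called higher and 4.86% lower in Rosi, and 2.99% and 6.68% in Veh. The folds of these pathway genes are given without taking out the GC trend described above.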

How the data were processed

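The authors sequenced poly(A) libraries on a HiSeq instrument with paired reads, and the submitters' processing notes name bcl2fastq 2.17, FastQC, Salmon, DESeq2 and mm10, with no version for the others. Each deposited table lists, per transcript, an estimated count of reads, a TPM value and an effective length, all made by the authors with Salmon. The strand setting is not given in the sources used here. Of the 12 deposited libraries 11 were counted, since 2 input Veh tables were identical.

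Estimated counts were summed to genes by the GENCODE M21 annotation (115973 of 117135 transcripts matched, and the 1162 others held 0.381 to 0.464% of reads) and rounded. Libraries held 17446517 to 24016101 estimated reads, so a level of 1 CPM rests on few reads and values near it are coarse. Genes passing filterByExpr were tested with edgeR 4.0.16 (quasi-likelihood F test, TMM factors) in R 4.3.3, with Benjamini-Hochberg adjustment over all genes. Calls needed an adjusted p under 0.05 and a log2 fold change beyond 0.2 (Rosi over Veh) or 1 (polysome over input, and translation efficiency). Rosi over Veh was fitted separately in each fraction, and the other comparisons in 1 fit of the 4 groups. Printed CPM are scaled to the TMM library sizes of the fit of the 4 groups, and overlap between groups was judged on them in every comparison. Alternatives used DESeq2 1.42.0, limma 3.58.1 on log2(TPM + 1), other scaling and filters, each library left out, protein-coding transcripts only, and offsets without the GC trend. The edgeR step was tested on simulated data. GC content came from the most abundant protein-coding transcript.

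The members and the lists of pathway and marker genes were chosen with earlier results of these data known. All 33 members are named. Full statistics are given for members called and for those of smallest p on each side in a comparison, up to 3, and pathway genes are named where they were called. Marker lists are given by sums and counts, with a few genes named. Replicate numbers were not used to pair the libraries in the main fits. The correlation of deviations between same-numbered libraries ran from -0.705 to 0.45. Between same-numbered input and polysome libraries of the same treatment it ran from -0.285 to 0.45. Deviations within groups of 2 or 3 libraries sum to 0, so these correlations cannot show whether the numbers pair libraries. Between differently numbered libraries the correlation ran from -0.535 to 0.792. It was highest for polysome Rosi replicate 1 with polysome Veh replicate 3 (0.792) and polysome Rosi replicate 3 with polysome Veh replicate 1 (0.65). The fits treated all libraries as independent, and the source of such shared deviations was not tested. Promoter sequences and motif shares are from RefSeq GRCm38.p6. The authors' own lists of changed genes were not used.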

Additional observations from a re-analysis of the deposited data

How the results depend on the processing

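The members' counts moved as follows. In input, the 1 member lower in Rosi (Samd9l) became 0 with log2 TPM values, with protein-coding transcripts only, with the GC trend taken out and with the replicate block, and 0 to 1 with each library left out. In polysome over input in Rosi, the 0 members lower became 2 with DESeq2, 2 with RLE factors, 3 with upper-quartile factors, 2 with protein-coding transcripts, 1 with the replicate block, 1 without polysome Rosi replicate 1 and input Rosi replicate 3, and 0 to 4 with each library left out. The 2 members higher became 0 with log2 TPM values and with the GC trend taken out, and 1 to 4 with each library left out. In Veh, the 1 member higher became 2 without scaling factors, 0 with log2 TPM values and with the GC trend taken out, and 1 to 3 with each library left out. The 3 members lower became 0 with log2 TPM values. Without scaling factors, or with the GC trend taken out, Oas2 and Oas3 stayed called lower and Dhx58 did not. With single libraries left out, calls of Oas2 and Dhx58 were also lost, as given above. With no minimum fold, or a minimum of 0.2, the counts were 8 higher and 12 lower in Rosi and 4 higher and 13 lower in Veh. The members' median in Veh, -0.34, was -0.20 without scaling factors and -0.45 with protein-coding transcripts. Single members changed sign. Samd9l in polysome over input in Rosi stood at 0.65, and at -0.24 with the GC trend taken out. Without input Rosi replicate 3, Isg15 and Ifit3 in input turned below 0 (-0.28 and -0.35). The causes were not tested.

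Over all genes, the 182 calls of Rosi over Veh in input became 367 with DESeq2, 907 with no filter, 1054 with all libraries as deposited, where the identical tables counted as replicates, 57 with log2 TPM values, 77 in 1 fit of all groups, and 66 to 1580 with each library left out. The 88 calls in polysome became 189 with no filter, 37 with log2 TPM values and 55 to 179 with each library left out. The 1593 calls of polysome over input in Rosi became 876 with log2 TPM values, 7731 with no minimum fold, 7730 with a minimum of 0.2 and 576 with the GC trend taken out. The 1358 in Veh became 844, 6929, 6929 and 553 in the same order. The 0 calls of translation efficiency became 1 with DESeq2, 57 with no filter, 1 with protein-coding transcripts, 6 with the GC trend taken out and 0 to 9 with each library left out.

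The labels do not state the pairing and the correlations above cannot decide it, so the replicate block was only an alternative. Under it, polysome over input in Veh had 1 member higher and 4 lower, Ifit2 stood at 1.24 in Rosi and 1.09 in Veh, and Samd9l in input at -0.49. The alternatives with the GC trend taken out, and without polysome Rosi replicate 1 and input Rosi replicate 3, were chosen after seeing the data. With n = 2 for input Veh, and members such as Mx1, Mx2, Ifi44 and Oas2 resting on few reads, small differences were not detectable.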
